A study of Rattus norvegicus with 12 samples.

Results

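The 44 genes described here carry out or control cell division: 6 genes of the G1 phase (5 cyclins and the factor E2f1), 12 genes of DNA replication, 22 genes of G2 and mitosis, and 4 inhibitors of cyclin-dependent kinases. They were taken by gene symbol from tables of 18483 genes, for their known roles. All 44 were found, and all 44 were among the 13967 genes with enough counts to be tested. Neonatal rat ventricular myocytes (NRVMs) are heart muscle cells isolated from the ventricles of newborn Sprague-Dawley rats and enriched over other heart cells on a Percoll density gradient. The 12 samples formed 4 groups of 3. The siNeg and siSlc39a2 samples were transfected with a negative control siRNA or with an siRNA against Slc39a2, which encodes a zinc importer of the cell membrane. The siNeg PE and siSlc39a2 PE samples were transfected likewise and, after 12 h, given phenylephrine (PE), an alpha-1 adrenergic agonist that makes cardiomyocytes enlarge, for 36 h according to the labels (the study's general culture methods give a longer exposure). All 4 groups were kept in medium with insulin, transferrin and selenium. Knockdown rested on a single siRNA against Slc39a2, and each sample is RNA from a whole culture.

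In a dividing cell, D and E cyclins with their kinases release E2F factors from the RB protein in G1, and E2F then turns on the genes that license and copy DNA. A later wave, driven by the factors B-Myb and FOXM1 on promoters that carry the cell cycle homology region, or CHR, turns on the kinases, motors and checkpoint proteins of mitosis. The CIP/KIP and INK4 inhibitors hold these kinases back. Cardiomyocytes leave the cell cycle soon after birth, and in neonatal heart cells part of the remaining DNA synthesis ends without division of the cell, so mRNA of these genes marks cycle activity and does not count new cells. RNA from a whole culture also contains RNA from any fibroblasts and other cells that divide. In such bulk samples, fewer cells of a type and less RNA per cell cannot be told apart.

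Library totals ranged from 24065539 to 28603854 counts. Levels are given as CPM, which are counts scaled to the library total after TMM normalisation. Slc39a2 stood at 1.89 to 2.32 CPM in siNeg, at 3.5 to 6.96 in siNeg PE, at 0.078 to 0.726 in siSlc39a2 and at 0.862 to 1.38 in siSlc39a2 PE, so its level was below that of the matched control in every knockdown sample. The 12 cardiomyocyte markers summed to 29700 to 32600 FPKM (fragments per kilobase of transcript, scaled to library size) in siNeg and to 29300 to 30400 in siSlc39a2. With PE the sums were 37200 to 39500 and 38700 to 42800. By marker, PE in siNeg cells had 3 of the 12 higher and 4 lower (25% and 33.3%, against 24.0% and 25.7% of all genes). In siSlc39a2 cells 4 were higher and 3 lower with PE (33.3% and 25%, against 30.7% and 29.3%). From siNeg to siNeg PE, mean FPKM of Actc1 went from 7300 to 13700 and that of Myh6 from 2500 to 1360. Actc1, Tnnt2 and Myl3 were the most abundant. With knockdown without PE, 6 of the 12 were lower and none higher (50%, against 26.4% of all genes lower). With knockdown under PE, 5 were lower and 1 higher (41.7% and 8.33%, against 28.1% and 29.2%). The 12 endothelial markers, led by Egfl7, Tek and Kdr, summed to no more than 8.64 FPKM, and the 11 macrophage markers, led by Lyz2, Cd68 and Cd14, to 71.2 to 99.8 in siNeg and to 29 to 51.6 in the other groups. Of 10 macrophage markers tested, 4 were lower with PE in siNeg cells, 5 with knockdown without PE and 3 with knockdown under PE. None were higher. The lower shares were 40%, 50% and 30%, against 25.7%, 26.4% and 28.1% of all genes tested, so the last was near that of all genes. Smooth muscle markers, led by Des, Cnn1 and Pdgfrb, summed to 1680 to 2920 FPKM, mostly from Des, which cardiomyocytes also express. Of these 10 markers, 8 were lower and none higher with knockdown without PE (80%, against 26.4% of all genes lower). With knockdown under PE, 3 were lower and 3 higher (30% each, near the 28.1% and 29.2% of all genes). The part of these cells in the members' values was not tested. The 12 fibroblast markers, led by Col1a1, Col3a1 and Col1a2, were present in every sample and differed between groups, as set out beside the knockdown results. Libraries also differed in the recovery of long transcripts. Genes over 6000 bases lay at a median of -0.42 on the log2 scale from their mean over samples in siNeg replicate 1 and of 0.37 in siSlc39a2 PE replicate 3, against -0.15 to 0.23 in the other 10 libraries. Results that rest on these 2 libraries are therefore given with and without them.

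The promoters of replication and mitotic members differ in some short motifs and share another. Stretches of them are shown because the members moved in these 2 groups. RefSeq promoter windows of 300 bases (GRCr8, 250 before to 50 after the annotated start) were found for 32 of the 44 members. The letters TTTCGCGC or TTTGGCGC, which are spellings of the E2F site, were present on either strand in 7 of 9 replication promoters (Cdt1, Mcm2, Mcm3, Mcm5, Mcm6, Mcm7 and Tyms) and in 0.792% of all 33469 promoters of that length. The CHR letters TTTGAA were present on either strand in 12 of 18 mitotic promoters and in 18.3% of all promoters. A related spelling, TTTAAA, was present in 8 of the 18 and in 13.6% of all. CCAAT, the letters bound by NF-Y, was present in 14 of the 18, in 6 of the 9 replication promoters and in 37.5% of all. The CHR letters were also present in 1 of the 9 replication promoters (Mcm2), and an E2F spelling in 1 of the 18 mitotic promoters (Cdk1). The spellings TTTCGCGC and TTTGGCGC can overlap on opposite strands, as in Mcm6, and each promoter was counted once. A match is a description of the letters and shows no binding. The 150 bases before the annotated start are printed for 5 members, 5′ to 3′ on the strand of the gene, with matches to any of these spellings, or to their reverse complements, in capitals. Mcm6 and Mcm7 encode subunits of the replicative helicase (chr13:42404353-42404502 and chr12:22163179-22163328, both minus strand). Cdk1 encodes the kinase that drives entry into mitosis (chr20:19265143-19265292, plus strand), Prc1 a protein that bundles microtubules of the central spindle (chr1:143659331-143659480, plus strand), and Cdc20 an activator of the anaphase-promoting complex (chr5:137255800-137255949, minus strand).
Mcm6: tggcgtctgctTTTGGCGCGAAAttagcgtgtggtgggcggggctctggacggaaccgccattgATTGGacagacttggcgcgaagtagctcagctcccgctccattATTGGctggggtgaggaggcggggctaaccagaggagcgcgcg
Mcm7: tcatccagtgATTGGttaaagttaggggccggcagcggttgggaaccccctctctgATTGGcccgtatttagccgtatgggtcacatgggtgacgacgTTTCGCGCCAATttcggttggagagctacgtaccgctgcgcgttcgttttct
Cdk1: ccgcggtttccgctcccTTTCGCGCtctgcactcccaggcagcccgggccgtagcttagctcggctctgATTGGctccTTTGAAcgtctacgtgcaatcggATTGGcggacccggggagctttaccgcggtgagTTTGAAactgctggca
Prc1: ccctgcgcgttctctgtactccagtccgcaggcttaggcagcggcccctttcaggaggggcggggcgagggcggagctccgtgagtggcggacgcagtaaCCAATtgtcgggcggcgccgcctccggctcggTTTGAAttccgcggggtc
Cdc20: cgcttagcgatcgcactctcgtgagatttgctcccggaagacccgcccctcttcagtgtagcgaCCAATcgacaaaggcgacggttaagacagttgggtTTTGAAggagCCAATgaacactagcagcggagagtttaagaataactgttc

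The mRNAs of the cycle were present in unstimulated NRVMs, most of them at low levels. Per length, the mean in siNeg ran from 0.177 ± 0.0551 FPKM (SD, n = 3) for the kinetochore gene Cenpf to 168 ± 2.22 for the cyclin Ccnd3. The inhibitor Cdkn1a stood at 163 ± 35.7 FPKM, Pcna at 34.5 ± 2.4, Rrm2 at 25.2 ± 8.3 and Cdk1 at 22.6 ± 4.3. Mki67, the gene of the proliferation antigen Ki-67, stood at 1.49 ± 0.714 FPKM and Top2a at 2.47 ± 0.879. Ccnd3 and Cdkn1a did not differ beyond their spread and lay far above the remaining members. For 10 members (Ccne2, Cdc6, Mki67, Ccna2, Ccnb2, Aurkb, Kif20a, Kif23, Anln and Cdkn1a) some counts were not whole numbers, as arises when a counting program divides reads among loci. How these counts were made is not given in the sources used here, so the changes of these genes are uncertain to that extent.

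**Figure D1:**
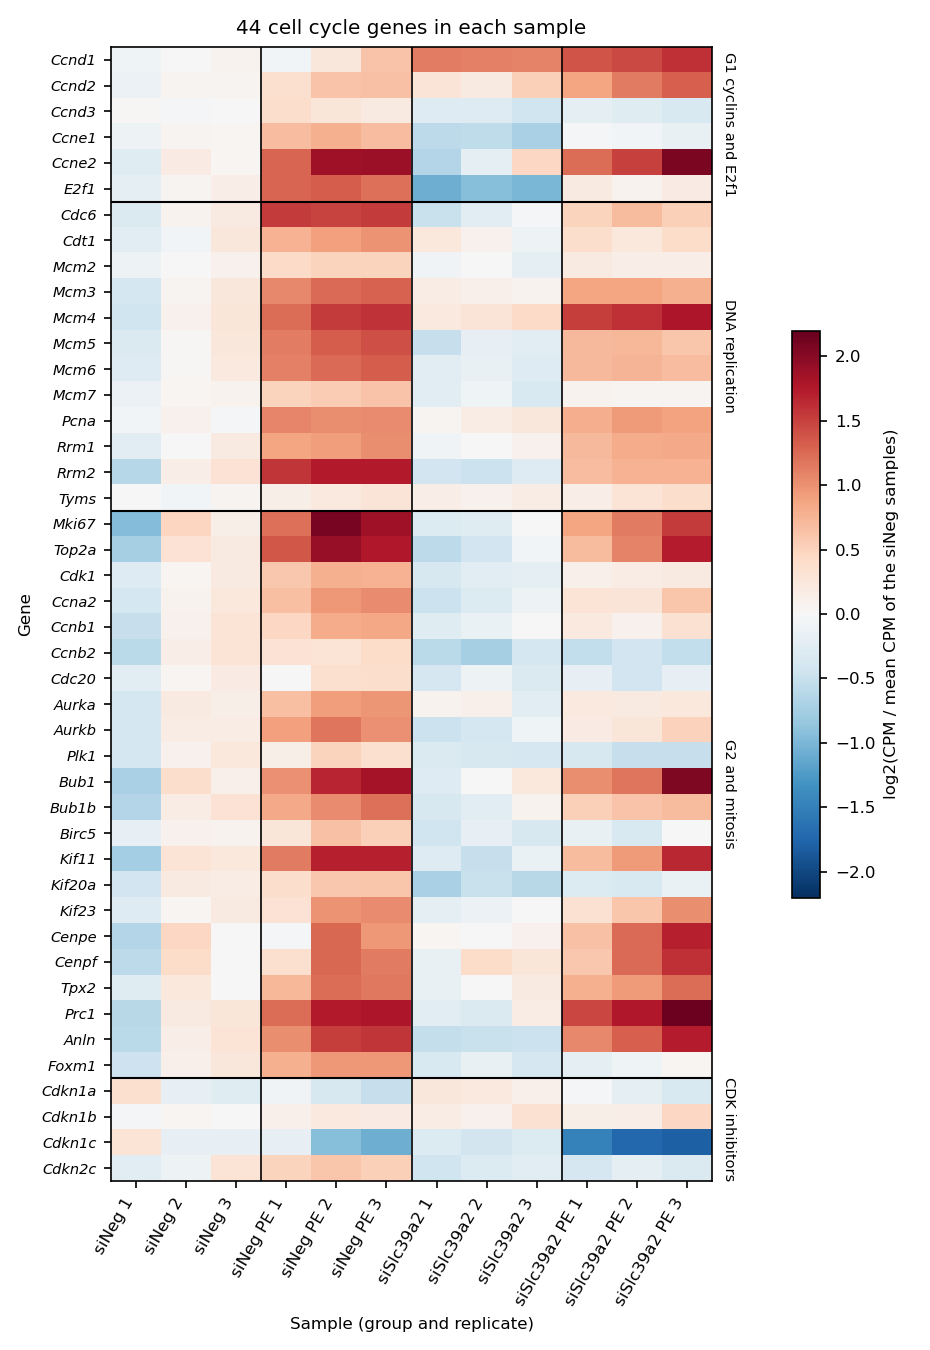
Level of each of the 44 genes (rows, grouped by role) in each of the 12 samples (columns), as log2 of CPM over the mean CPM of the 3 siNeg samples; red is higher and blue lower than siNeg. Most replication and mitotic genes are red in the 3 siNeg PE samples and paler in the siSlc39a2 PE samples, Ccnd1 is red in all 6 knockdown samples, and Cdkn1c is darkest blue in siSlc39a2 PE.

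Comparing siNeg PE with siNeg shows how PE altered these genes in control NRVMs. PE raised 36 of the 44 members and lowered 1 (edgeR, adjusted p below 0.05). That is 81.8% of the members higher, against 24.0% of all genes tested higher and 25.7% lower. The median log2 fold change of the members was 0.89, and that of all genes -0.01. Of the 36 members, 18 also had a log2 fold change above 1, which 3.80% of all genes had. Every replication gene rose, 18 of 22 mitotic genes rose, 5 of 6 G1 genes rose, and the inhibitor Cdkn1c fell.

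Among the replication genes, the median log2 fold change with PE was 1.13, with a range of 0.21 to 1.69. Rrm2, the inducible subunit of ribonucleotide reductase, was measured at 41.7, 71.7 and 80.1 CPM in siNeg and at 191, 216 and 217 in siNeg PE. All 3 PE values lay above all 3 controls, and siNeg replicate 1 was the lowest by a wide margin. The fitted log2 fold change of Rrm2 was 1.69 ± 0.17 (SE; adjusted p = 1.2e-05). Cdc6, which loads the helicase onto origins, stood at 4.7, 6.21 and 6.7 CPM in siNeg and at 17.1, 16.5 and 17.1 in siNeg PE. These groups were also apart, with a log2 fold change of 1.53 ± 0.14 (adjusted p = 5.03e-06). Mcm4 went from 13.9, 20.1 and 22.6 CPM to 44, 55 and 56.9, again without overlap (1.46 ± 0.15, adjusted p = 1.58e-05).

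The 6 helicase subunits did not rise alike. Mcm3, Mcm4, Mcm5 and Mcm6 rose by 1.2 to 1.46 on the log2 scale, while Mcm2 and Mcm7 rose by 0.47 ± 0.07 and 0.56 ± 0.08. Mcm2 was measured at 60.3, 65.9 and 69.2 CPM in siNeg and at 87.1, 91.5 and 91.3 in siNeg PE. Pcna, the sliding clamp of the DNA polymerases, stood at 37.3, 41.5 and 38.1 CPM in siNeg and at 81.6, 79.6 and 80.3 in siNeg PE. Its replicates were among the closest of any member, and its log2 fold change was 1.05 ± 0.07 (adjusted p = 4.41e-07). Tyms, thymidylate synthase, had the smallest change of the 12 at 0.21 ± 0.08 (adjusted p = 0.046), and its call was lost without either siNeg PE replicate 2 or 3 or siNeg replicate 1 or 2 (adjusted p 0.0957 to 0.146).

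The 22 mitotic genes had a median log2 fold change of 0.90 with PE, and all 22 fitted values were above 0. Mki67 was measured at 7.62, 20.5 and 16.1 CPM in siNeg and at 34.3, 62.6 and 54 in siNeg PE. The groups were apart, but values within each varied by more than those of the replication genes, with replicate 1 the lowest in both. The log2 fold change of Mki67 was 1.77 ± 0.30 (adjusted p = 0.000506). Top2a, topoisomerase II alpha, went from 8.85, 18.2 and 16.8 CPM to 37.8, 55.4 and 49.6 (1.70 ± 0.28, adjusted p = 0.000436). Prc1 went from 8.02, 14.1 and 14.8 CPM to 29, 41.3 and 42.3 (1.61 ± 0.24, adjusted p = 0.000195). In both genes every PE value exceeded every control value.

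Several genes of late G2 and of exit from mitosis had small values. Cdk1 was measured at 21.6, 27 and 30.3 CPM in siNeg and at 39.9, 45.2 and 44.9 in siNeg PE, with no overlap and a log2 fold change of 0.72 ± 0.11 (adjusted p = 0.000202). The members that did not pass the test were Ccnb2 (0.34 ± 0.18), Cdc20 (0.26 ± 0.13), the kinase Plk1 (0.34 ± 0.13, adjusted p = 0.054) and the kinetochore motor Cenpe (0.82 ± 0.35, adjusted p = 0.0641). Their values overlapped between siNeg and siNeg PE. Cenpf passed at 0.97 ± 0.32 (adjusted p = 0.0235) although its groups overlapped, and it no longer passed without siNeg replicate 1 or 3 or siNeg PE replicate 2 or 3 (adjusted p 0.0526 to 0.0928).

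Among the G1 genes, E2f1, the activating E2F factor, was measured at 23.8, 28.7 and 30.4 CPM in siNeg and at 66.9, 69.8 and 63.8 in siNeg PE. The groups lay far apart, with a log2 fold change of 1.27 ± 0.09 (adjusted p = 5.04e-07). The E cyclins rose too. Ccne1 went from 17.7, 20.1 and 19.9 CPM to 30.9, 33.2 and 30.7 (0.72 ± 0.08, adjusted p = 2.43e-05), and Ccne2 from 1.62, 2.2 and 2.01 to 4.72, 7.07 and 7.15 (1.70 ± 0.29, adjusted p = 0.000485). Of the D cyclins, Ccnd2 stood at 132, 151 and 150 CPM without PE and at 185, 223 and 225 with it (0.55 ± 0.12, adjusted p = 0.00264), and Ccnd3 rose by 0.29 ± 0.07 (adjusted p = 0.00328). Ccnd1 did not pass, with overlapping values of 39.4, 42.3 and 44.3 CPM in siNeg and 40.4, 49.7 and 65 in siNeg PE (0.30 ± 0.13, adjusted p = 0.0733).

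The inhibitors moved in different directions. Cdkn1c, which encodes the CIP/KIP protein p57, was measured at 78.9, 56.3 and 56.2 CPM in siNeg and at 56.6, 33.3 and 30.4 in siNeg PE. The highest PE value lay within the control range, and the log2 fold change was -0.67 ± 0.20 (adjusted p = 0.015). That call was lost without siNeg replicate 1 or without siNeg PE replicate 2 or 3 (adjusted p 0.068 to 0.0751). Cdkn2c, which encodes the INK4 protein p18, went from 7.46, 8.15 and 10.8 CPM to 12.3, 13.5 and 12.7, with no overlap (0.54 ± 0.13, adjusted p = 0.00435). Cdkn1a, which encodes p21, stood at 413, 286 and 270 CPM in siNeg and at 305, 254 and 226 in siNeg PE (-0.30 ± 0.15, adjusted p = 0.103), and Cdkn1b, which encodes p27, at a log2 fold change of 0.17 ± 0.09 (adjusted p = 0.155).

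**Figure D2:**
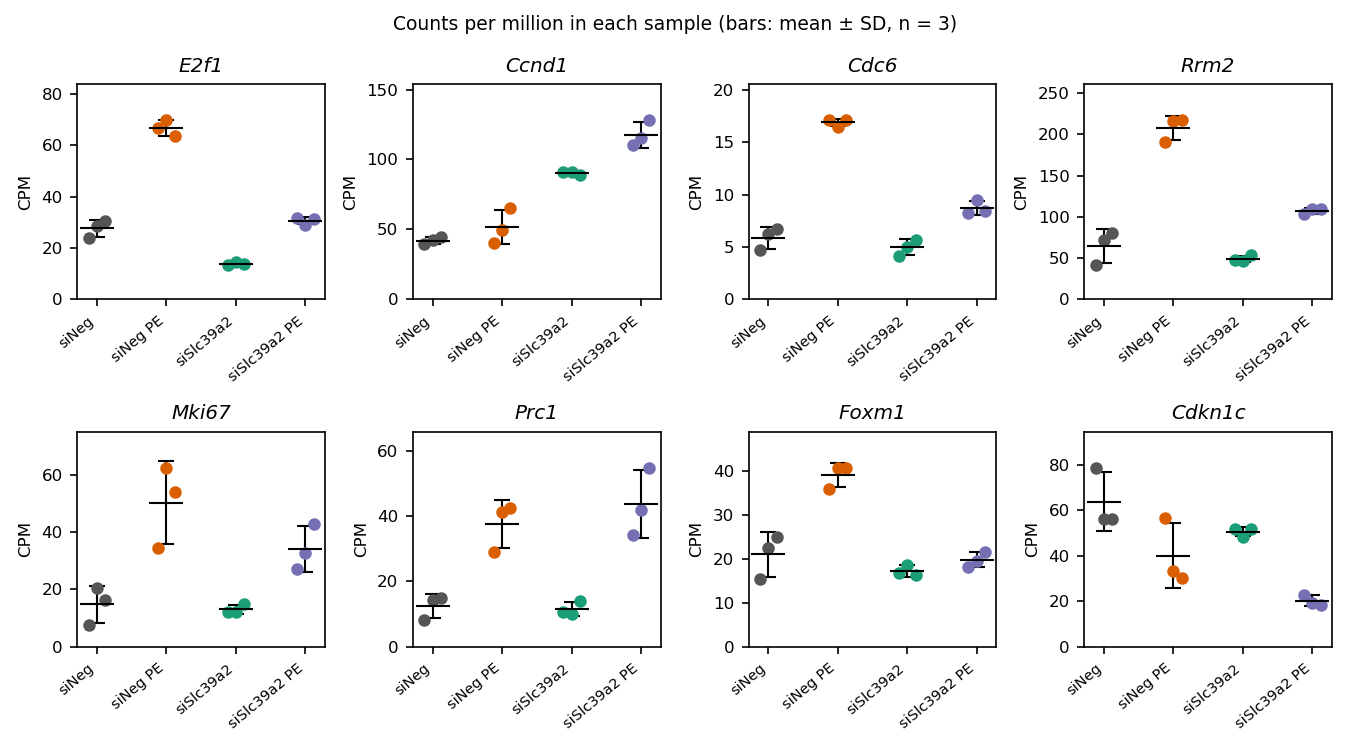
CPM (y axis, from 0) of 8 members in the 12 samples, with points for samples and black bars for the group mean ± SD (n = 3). E2f1, Cdc6, Rrm2 and Foxm1 are highest in siNeg PE and lower in siSlc39a2 PE, Prc1 is about as high in both PE groups, Ccnd1 is higher in both knockdown groups, and Cdkn1c is lowest in siSlc39a2 PE at 18.3 to 22.9 CPM.

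Comparing siSlc39a2 PE with siNeg PE asks whether loss of Slc39a2 altered these genes in stimulated NRVMs. With PE present, 24 of the 44 members were lower after knockdown and 2 were higher. That is 54.5% of the members lower, against 28.1% of all genes tested lower and 29.2% higher. The median log2 fold change was -0.49 over the members and 0.01 over all genes. Only E2f1 fell by more than 1 on the log2 scale and only Ccnd1 rose by more than 1 among the members, against 5.58% of all genes lower and 6.03% higher by that measure. The members that fell were 8 replication genes, 11 mitotic genes, Ccnd3, Ccne1 and E2f1, and the inhibitors Cdkn1c and Cdkn2c. The members that rose were Ccnd1 and Ccnd2.

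The G1 genes split. E2f1 was measured at 31.7, 29 and 31.2 CPM in siSlc39a2 PE, under all 3 siNeg PE values (63.8 to 69.8), and fell by 1.12 ± 0.09 on the log2 scale (adjusted p = 4.13e-07). Ccne1 stood at 18.6, 18.5 and 17.1 CPM against 30.7 to 33.2 (-0.80 ± 0.08, adjusted p = 3.85e-06), and Ccnd3 fell by 0.55 ± 0.07 (adjusted p = 1.72e-05). Ccnd1, the D cyclin that links growth signals to the cycle, went the other way, at 110, 115 and 128 CPM against 40.4 to 65 (1.18 ± 0.13, adjusted p = 9.15e-06). Ccnd2 stood at 264, 320 and 360 CPM against 185 to 225 (0.58 ± 0.12, adjusted p = 0.00115), but it did not pass with limma in any of its 3 forms, for example on log2(FPKM + 1) (0.39, adjusted p = 0.0553). Ccne2 stood at 4.55, 5.52 and 8.14 CPM and overlapped with siNeg PE (-0.06 ± 0.26, adjusted p = 0.867).

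Of the replication genes, Rrm2, Cdc6 and Mcm5 fell most with knockdown under PE. Rrm2 was measured at 103, 109 and 110 CPM against 191 to 217 (-0.96 ± 0.17, adjusted p = 0.000383). Cdc6 was measured at 8.24, 9.49 and 8.47 CPM against 16.5 to 17.1 (-0.95 ± 0.13, adjusted p = 7.09e-05). In both genes the knockdown values lay well below the control values and still above the unstimulated ones. Mcm5 stood at 49.2, 49.7 and 45.6 CPM against 65.6 to 80.2 (-0.62 ± 0.13, adjusted p = 0.00116). Mcm2 stood at 74.3, 72.1 and 72.2 CPM against 87.1 to 91.5 (-0.30 ± 0.07, adjusted p = 0.00261).

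Cdt1, Mcm3, Mcm6 and Mcm7 also fell, by 0.54, 0.36, 0.52 and 0.50 on the log2 scale. The call of Mcm3 was lost without siNeg PE replicate 2 or 3 or siSlc39a2 PE replicate 3 (adjusted p 0.0593 to 0.0727). Pcna stood at 67.5, 74.9 and 72.2 CPM, below all 3 siNeg PE values, and missed the threshold (-0.17 ± 0.07, adjusted p = 0.0536). Mcm4, Rrm1 and Tyms did not pass, and the fitted values of Mcm4 and Tyms were above 0 (0.18 ± 0.15 and 0.08 ± 0.08). The helicase subunits therefore differed again, with Mcm4 at 53.9, 57.7 and 64.9 CPM overlapping its siNeg PE values of 44 to 56.9.

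Of the mitotic genes, Foxm1, Ccnb2, Plk1 and Kif20a fell most. Foxm1, the factor that drives the mitotic wave, was measured at 36.1, 40.9 and 40.7 CPM in siNeg PE and at 18.2, 19.6 and 21.6 in siSlc39a2 PE, against unstimulated values of 15.4, 22.6 and 25.1. The overlap with unstimulated siNeg came from siNeg replicate 1 alone. Its log2 fold change with knockdown was -0.99 ± 0.14 (adjusted p = 8.75e-05). Ccnb2, a mitotic cyclin, stood at 5.26, 5.73 and 5.27 CPM against 9.43 to 10.2 (-0.84 ± 0.18, adjusted p = 0.00177). Plk1 stood at 21.7, 19.4 and 19.4 CPM against 30.3 to 39 (-0.79 ± 0.14, adjusted p = 0.000328). Neither gene had risen with PE in the controls by the test, and their siSlc39a2 PE values overlapped with the unstimulated siNeg values only through siNeg replicate 1. Without that library they lay below the unstimulated controls. Cdk1 stood at 28.3, 29.3 and 30 CPM against 39.9 to 45.2 (-0.57 ± 0.11, adjusted p = 0.000608).

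The other mitotic members that fell were Ccna2, Ccnb1, Cdc20, Aurka, Aurkb, Birc5 and Kif20a, by 0.49 to 0.79 on the log2 scale. They encode cyclins, the Aurora kinases, survivin and a kinesin of cytokinesis. The calls of Ccna2 and Ccnb1 were lost without siNeg PE replicate 2 or 3 or siSlc39a2 PE replicate 2 (adjusted p 0.0548 to 0.0736). Mki67 stood at 27, 32.7 and 42.7 CPM and overlapped with siNeg PE (-0.56 ± 0.29, adjusted p = 0.111), as did Top2a at 23.8, 31.3 and 48.4 (-0.47 ± 0.27, adjusted p = 0.155). In both, the overlap came from siSlc39a2 PE replicate 3 lying above siNeg PE replicate 1, and without either library the groups were apart. Mki67 passed without siNeg PE replicate 1, and Top2a without siSlc39a2 PE replicate 3. For Prc1 the values were 34.1, 41.8 and 54.8 CPM (0.22 ± 0.22) and for Anln, which encodes the cytokinetic ring protein anillin, 38.9, 46.7 and 61.6 (0.00 ± 0.21). Bub1, Kif23, Tpx2, Cenpe and Cenpf had fitted values within -0.13 to 0.44 and did not pass, nor did Bub1b (-0.43 ± 0.19) and Kif11 (-0.38 ± 0.27). With siNeg replicate 1 and siSlc39a2 PE replicate 3 left out, an alternative chosen after seeing the data, all 26 calls of this comparison were kept and Mki67, Top2a, Bub1b and Kif11 passed as well.

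The inhibitors that fell were Cdkn1c and Cdkn2c. Cdkn1c was measured at 22.9, 19.3 and 18.3 CPM in siSlc39a2 PE against 30.4 to 56.6 in siNeg PE (-0.99 ± 0.21, adjusted p = 0.00131). Cdkn2c stood at 6.79, 7.69 and 7.05 CPM against 12.3 to 13.5 (-0.84 ± 0.13, adjusted p = 0.000149). Neither group of values overlapped. Cdkn1a stood at 312, 279 and 256 CPM and overlapped with siNeg PE (0.11 ± 0.15, adjusted p = 0.549).

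Fibroblast markers moved with knockdown beside these genes. Their sum was 1840 to 2400 FPKM in siNeg PE and 759 to 1070 in siSlc39a2 PE, and 2560 to 3490 in siNeg against 1140 to 1240 in siSlc39a2. With PE, 9 of the 12 markers were lower after knockdown and 1 was higher, with a median log2 fold change of -1.16. These were 75% and 8.33%, against 28.1% and 29.2% of all genes. None of the 12 stood at 0 in a group mean. Tcf21 was the marker that rose (0.51 ± 0.08), and Pdgfra did not pass (-0.28 ± 0.12). In the controls PE went with a lower fibroblast sum, which was made up mostly of the collagens Col1a1, Col3a1 and Col1a2. By marker, 6 were lower and 2 higher with PE there (50% and 16.7%, against 25.7% and 24.0% of all genes). Mean FPKM went up from 6 to 10.5 for Pdgfra, 37.3 to 53.2 for Dcn, 17.2 to 21.1 for Lum and 132 to 155 for Postn. It went down from 22.7 to 15.2 for Tcf21, 28.1 to 20.2 for Dpt and 4.74 to 3.34 for Thy1. Of the fitted values of the 12 markers, 5 were above 0 and 7 below. The part of the fibroblast markers in the rise or fall of the members was not tested.

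**Figure D3:**
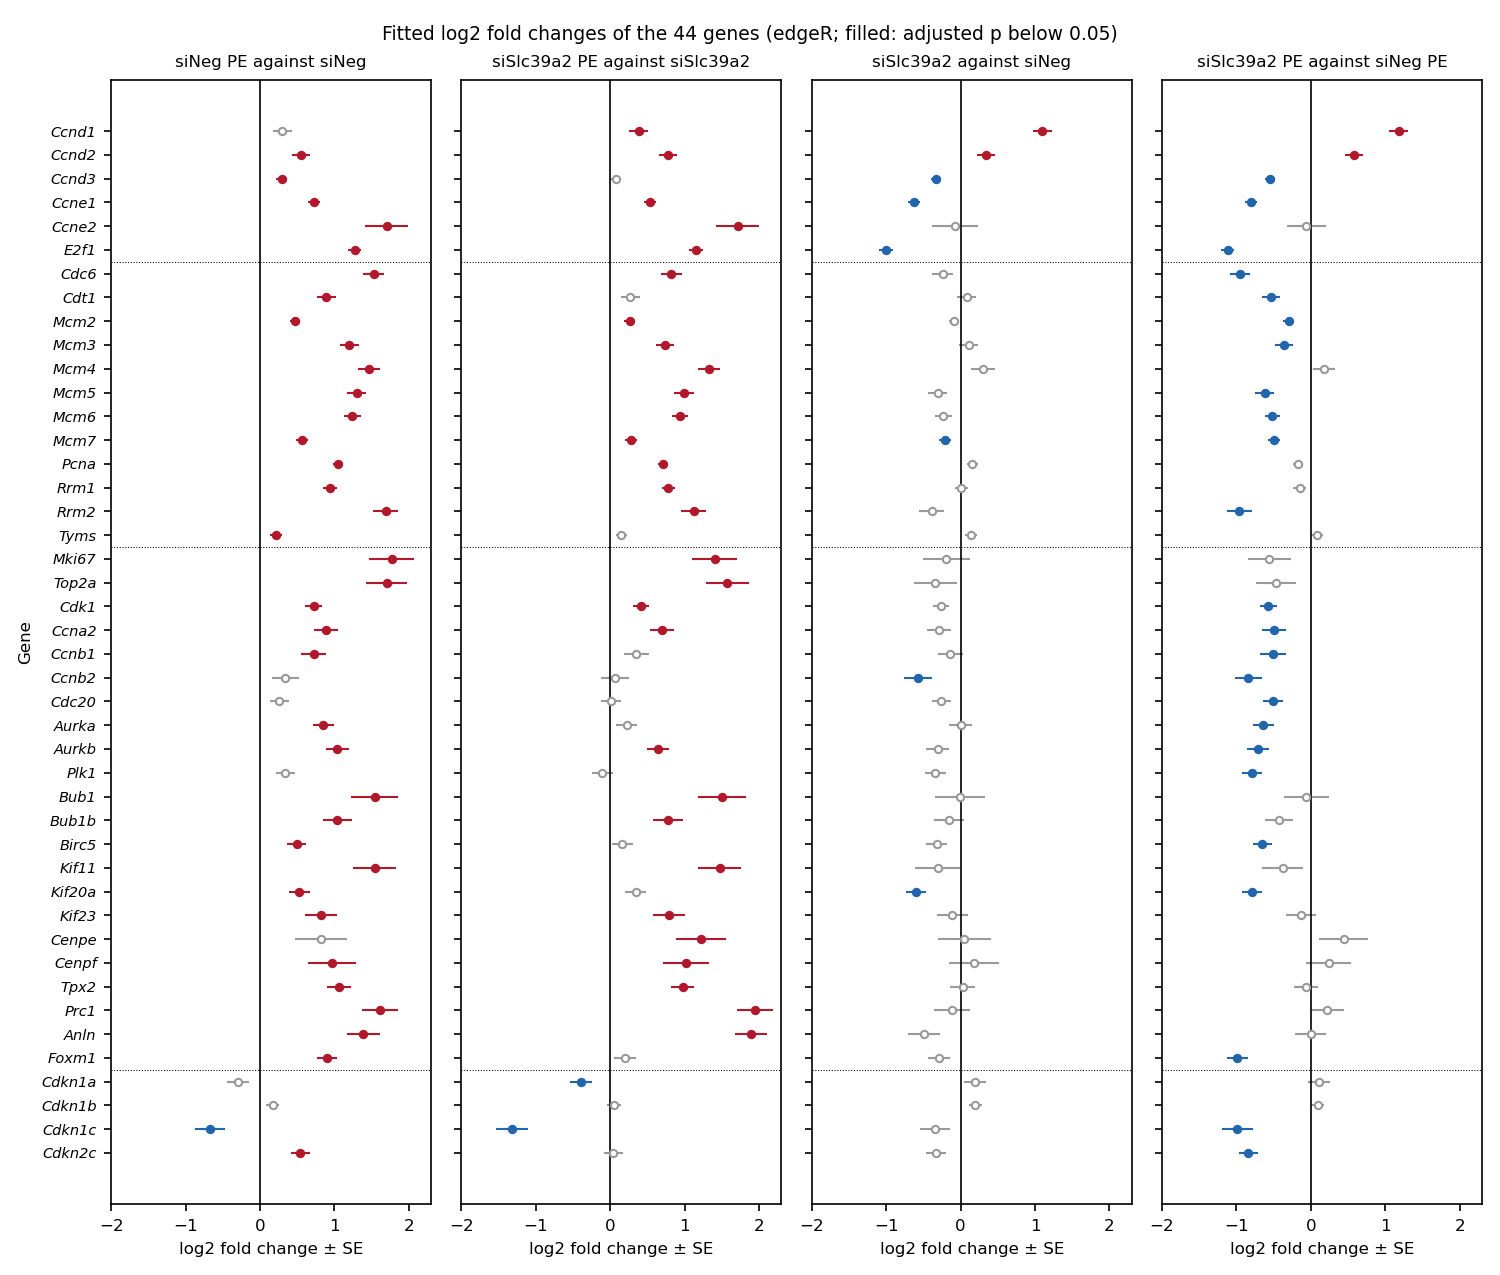
Fitted log2 fold changes ± SE (x axis) of the 44 genes (rows, dotted lines between role groups) in the 4 comparisons, with filled red or blue points for adjusted p below 0.05 in edgeR and open grey points for the rest. Red points fill the first panel (36 genes) and the second (29 genes), few points are filled in the third (8 genes), and 24 are blue in the fourth.

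Comparing siSlc39a2 with siNeg asks the same of unstimulated NRVMs, and here few members changed. By the test, 2 of the 44 were higher and 6 were lower, or 4.55% and 13.6%, against 22.8% of all genes tested higher and 26.4% lower. Both shares were below the background in this fit, but the lower share was above it without siNeg replicate 1. The median was -0.20 over the members and -0.02 over all genes. Ccnd1 was the only member higher by more than 1 on the log2 scale and E2f1 the only member lower by as much, against 4.57% and 5.21% of all genes.

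The changes in unstimulated cells were again in the G1 genes. E2f1 was measured at 13.2, 14.4 and 13.7 CPM after knockdown, below its siNeg values of 23.8 to 30.4 (-1.0 ± 0.09, adjusted p = 1.89e-06). Ccnd1 stood at 91.2, 90.7 and 89.2 CPM against 39.4 to 44.3 (1.10 ± 0.13, adjusted p = 1.94e-05). Ccne1 stood at 12.9, 13 and 11.7 CPM against 17.7 to 20.1 (-0.62 ± 0.08, adjusted p = 5.21e-05). None of these groups overlapped, and each call held when any 1 library was left out. Ccnd3 fell by 0.33 ± 0.07 (adjusted p = 0.0011). Ccnd2, at 176, 166 and 207 CPM against 132 to 151, rose by 0.34 ± 0.12 (adjusted p = 0.0312), and this call was lost without siNeg replicate 1 or siSlc39a2 replicate 3 (adjusted p = 0.106 and 0.0804). The call was also lost with limma in all 3 forms, and without siNeg replicate 1 and siSlc39a2 PE replicate 3 together.

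Of the later genes, Kif20a fell by 0.60 ± 0.14 (adjusted p = 0.00332), Ccnb2 by 0.57 ± 0.19 (adjusted p = 0.0229) and Mcm7 by 0.21 ± 0.08 (adjusted p = 0.0354). Ccnb2 and Mcm7 overlapped between the groups, and each call was lost in 4 of the 6 fits that left out a library of this comparison. Ccnb2 did not pass without siNeg replicate 2 or 3 or siSlc39a2 replicate 1 or 2 (adjusted p 0.0626 to 0.115), nor Mcm7 without siNeg replicate 2 or 3 or siSlc39a2 replicate 1 or 3 (adjusted p 0.0865 to 0.3). Mki67 stood at 12, 12.2 and 14.7 CPM (-0.19 ± 0.31), Top2a at 9.75, 10.9 and 14.1 (-0.34 ± 0.29) and Cdk1 at 20.5, 22.4 and 23 (-0.26 ± 0.11). Mcm2 at 61.7, 65.1 and 56.1 (-0.09 ± 0.07), Pcna at 40.5, 43.8 and 46.5 (0.16 ± 0.07) and Cdkn1a at 384, 376 and 347 (0.19 ± 0.15) did not pass either. All 6 overlapped with siNeg, but without siNeg replicate 1 only Pcna did. Without that library Cdk1 passed as lower and Cdkn1a as higher.

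This count depended on siNeg replicate 1. That library had the lowest value of the 3 siNeg samples for all 22 mitotic members and for 11 of 12 replication members. Replicate 1 was also the lowest for 21 of the 22 mitotic members in siNeg PE and for 15 in each knockdown group. Without siNeg replicate 1, 20 members were lower after knockdown in unstimulated cells (3 G1 genes, 5 replication genes, 11 mitotic genes and 1 inhibitor) in place of 6. That is 45.5% of the members, against 23.9% of all genes in the same fit, and the median of the mitotic members was -0.40 in place of -0.26. With siSlc39a2 PE replicate 3 left out too, 23 were lower, or 52.3% against 25.4% of all genes. Among those, Rrm2 then fell by 0.62 (adjusted p = 7.97e-05) and Foxm1 by 0.47 (adjusted p = 0.00156) on the log2 scale. Fibroblast markers moved with knockdown here too, with 9 of 12 lower (75%, against 26.4% of all genes) and a median of -1.27. Their part in these values was not tested.

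Comparing siSlc39a2 PE with siSlc39a2 shows the response to PE in cells with less Slc39a2. PE raised 29 of the 44 members there and lowered 2, or 65.9% and 4.55%, against 30.7% of all genes tested higher and 29.3% lower. The median was 0.70 over the members and 0.01 over all genes. By more than 1 on the log2 scale, 12 members rose and 1 fell, against 6.34% and 4.17% of all genes. This comparison shares no samples with the response in the siNeg cells.

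In the knockdown cells 10 of 12 replication genes rose, with a median of 0.75, and Mcm4, Rrm2 and Mcm5 rose most. Mcm4 went from 21.8, 23 and 25.2 CPM to 53.9, 57.7 and 64.9 (1.33 ± 0.15, adjusted p = 1.6e-05). Rrm2 went from 48.2, 46.4 and 53.1 CPM to 103, 109 and 110 (1.12 ± 0.17, adjusted p = 0.000151), and Mcm5 rose by 0.99 ± 0.13 (adjusted p = 4.72e-05). All of these groups were apart. Pcna rose by 0.71 ± 0.07 (adjusted p = 5.36e-06) and Mcm2 by 0.26 ± 0.07 (adjusted p = 0.00724). Without siSlc39a2 replicate 3 the calls of Mcm2 and Mcm7 were lost (adjusted p = 0.0556 and 0.0564).

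Of the mitotic genes 14 of 22 rose, with a median of 0.73, and Prc1, Anln and Top2a rose most. Prc1 went from 10.5, 9.82 and 13.8 CPM to 34.1, 41.8 and 54.8 (1.94 ± 0.24, adjusted p = 2.87e-05). Anln went from 13, 13.3 and 13.5 CPM to 38.9, 46.7 and 61.6 (1.89 ± 0.22, adjusted p = 2.03e-05). Top2a rose by 1.57 ± 0.29 (adjusted p = 0.000503), Mki67 by 1.40 ± 0.30 (adjusted p = 0.00159) and Cdk1 by 0.41 ± 0.11 (adjusted p = 0.00555). Foxm1 did not pass, at 16.7, 18.7 and 16.3 CPM without PE and 18.2, 19.6 and 21.6 with it (0.20 ± 0.15, adjusted p = 0.26). Its groups overlapped, as did those of Plk1 (-0.11 ± 0.14), Cdc20 (0.01 ± 0.13), Ccnb2 (0.06 ± 0.19) and Birc5 (0.16 ± 0.14). The call of Cenpf (1.02 ± 0.31, adjusted p = 0.0124) was lost without siSlc39a2 PE replicate 3 or siSlc39a2 replicate 1 (adjusted p = 0.0605 and 0.0561).

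E2f1 rose by 1.15 ± 0.09 in the knockdown cells (adjusted p = 7.71e-07), from 13.2 to 14.4 CPM up to 29 to 31.7, which overlaps the range of unstimulated siNeg cells. Ccne2 rose by 1.71 ± 0.29 (adjusted p = 0.000283), Ccnd2 by 0.78 ± 0.12 (adjusted p = 0.000141) and Ccnd1 by 0.38 ± 0.13 (adjusted p = 0.0216). The call of Ccnd1 was lost when any of siSlc39a2 replicates 1 to 3 or siSlc39a2 PE replicate 3 was left out (adjusted p 0.0518 to 0.0758). Cdkn1c fell from 51.7, 48.2 and 51.7 CPM to 22.9, 19.3 and 18.3 with no overlap (-1.32 ± 0.21, adjusted p = 0.000177). Cdkn1a fell by 0.39 ± 0.15 (adjusted p = 0.0373), a call that was lost without siSlc39a2 PE replicate 2 or 3 or siSlc39a2 replicate 1 or 2 (adjusted p 0.0868 to 0.121).

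**Figure D4:**
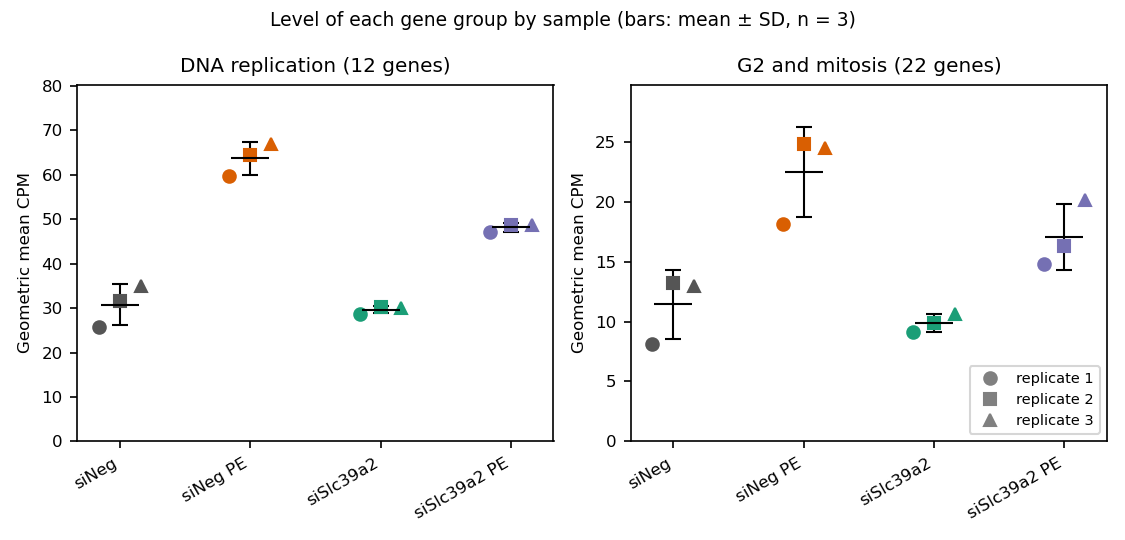
Geometric mean CPM (y axis, from 0) of the 12 replication genes and of the 22 mitotic genes in each sample, with symbols for the replicate and bars for the group mean ± SD (n = 3). Replication genes average 63.7 CPM in siNeg PE and 48.1 in siSlc39a2 PE with no overlap, while for the mitotic genes siSlc39a2 PE replicate 3 at 20.1 CPM lies above siNeg PE replicate 1 at 18.1.

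The levels of the gene groups in each sample show the same in brief. The geometric mean of the 12 replication genes was 25.7, 31.7 and 34.9 CPM in siNeg, 59.6, 64.5 and 66.9 in siNeg PE, 28.7, 30.2 and 30 in siSlc39a2, and 47, 48.7 and 48.7 in siSlc39a2 PE. The 2 unstimulated groups overlapped, though only through siNeg replicate 1, and siSlc39a2 PE lay between them and siNeg PE. The geometric mean of the 22 mitotic genes was 8.14, 13.2 and 13 CPM in siNeg, 18.1, 24.8 and 24.5 in siNeg PE, 9.14, 9.85 and 10.6 in siSlc39a2, and 14.8, 16.3 and 20.1 in siSlc39a2 PE. Here the PE groups overlapped because siSlc39a2 PE replicate 3 lay above siNeg PE replicate 1, and without either library they were apart. The unstimulated groups overlapped through siNeg replicate 1 alone. Relative to the siNeg mean, replication genes stood at 2.07 in siNeg PE and at 1.56 in siSlc39a2 PE, and mitotic genes at 1.96 and 1.49.

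The interaction term asks whether the effect of knockdown differed between stimulated and unstimulated cells. No member passed it in the reported edgeR fit, against 3.61% of all genes in either direction. At an unadjusted p under 0.05 there were 12 members, all with negative terms, and 37 of the 44 terms were negative. The shares of all genes at an unadjusted p under 0.05 or with negative terms were not counted. The median was -0.22 over the members and 0.03 over all genes. DESeq2 called 5 members (Cdc6, Cdt1, Pcna, Aurka and Foxm1), and limma on log2(FPKM + 1) called 5 (Ccnd3, Cdc6, Cdt1, Foxm1 and Cdkn2c). The length-adjusted edgeR fit described next called Cdc6 and Foxm1. All of these terms were negative. They were 11.4%, 11.4% and 4.55% of the members, against 3.21%, 3.36% and 3.13% of all genes lower in the same fits. In edgeR without siNeg replicate 3, Cdt1, Foxm1 and Cdkn2c passed, and without siSlc39a2 replicate 3 Cdt1 passed. Without siNeg replicate 1 and siSlc39a2 PE replicate 3 together Foxm1 passed (-0.59, adjusted p = 0.0318). In these fits the shares lower were 6.82%, 2.27% and 2.27% of the members, against 1.34%, 2.44% and 1.73% of all genes. The reported edgeR terms were -0.71 ± 0.20 for Cdc6 (adjusted p = 0.0709) and -0.70 ± 0.20 for Foxm1 (adjusted p = 0.0841). Those of E2f1 (-0.12 ± 0.13), Ccnd1 (0.08 ± 0.18), Ccnd2 (0.24 ± 0.17), Mcm2 (-0.21 ± 0.10), Pcna (-0.33 ± 0.10), Cdk1 (-0.31 ± 0.15), Mki67 (-0.37 ± 0.42), Top2a (-0.13 ± 0.40) and Cdkn1a (-0.08 ± 0.21) did not pass. Which members passed therefore depended on the fit.

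Transcript length moved with the fold changes of the mitotic genes. Length was taken as that implied by each gene's count and FPKM, and it ran from 790 bases for Birc5 to 10207 for Cenpf. Across the 22 mitotic genes, the Spearman correlation of length with the log2 fold change was 0.59 for knockdown with PE and 0.71 for PE in the siSlc39a2 cells, against 0.09 and 0.24 over 13930 genes. For PE in siNeg cells it was 0.65, against 0.25 over the same genes. The genes share the same libraries, so these are descriptions. For knockdown with PE the median of the 11 mitotic genes up to 3000 bases was -0.64 and that of the 11 longer ones -0.38. When a trend with length was fitted in each library and removed, an alternative chosen after seeing the data, these medians were -0.55 and -0.48, and for PE in the siSlc39a2 cells they went from 0.34 and 1.22 to 0.33 and 0.89. For PE in siNeg cells they went from 0.72 and 1.04 to 0.85 and 0.92.

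That adjustment left most calls in place. All 37 calls of PE in siNeg cells and all 26 of knockdown with PE were kept. Plk1 was added to the first comparison, and Rrm1, Mki67, Top2a and Bub1b to the second. For PE in the siSlc39a2 cells, Ccnd1 and Mcm2 were lost (0.22, adjusted p = 0.0997, and 0.14, adjusted p = 0.109).

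**Figure D5:**
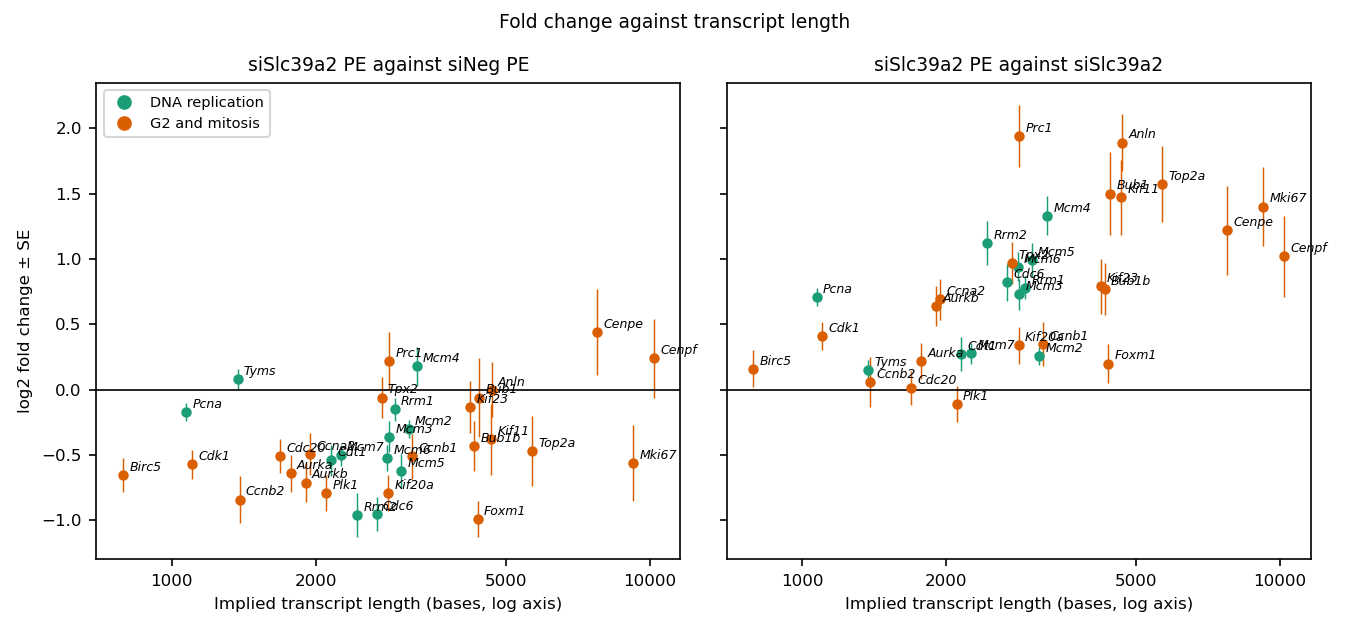
Log2 fold change ± SE (y axis) against implied transcript length in bases (x axis, log scale) for the 12 replication genes (green) and 22 mitotic genes (orange), for siSlc39a2 PE against siNeg PE on the left and siSlc39a2 PE against siSlc39a2 on the right. Short mitotic genes such as Ccnb2, Plk1 and Aurka lie low in both panels and long ones such as Cenpe and Anln lie higher. Exceptions include Foxm1 at 4366 bases, a long gene that lies low, and Prc1 at 2848 bases, a shorter one that lies high.

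Other genes of the same pathways were counted from lists of 164 genes in all. With PE in siNeg cells, 37 of 47 other replication genes and 51 of 57 other mitotic genes tested were higher and none lower, with medians of 0.78 and 1.01. That is 78.7% and 89.5%, against 24.0% of all genes. Among them Dtl, of a ubiquitin ligase that acts in S phase, rose by 1.69 ± 0.22, and Gmnn, whose product geminin blocks relicensing, by 1.67 ± 0.17. Clspn, which encodes claspin, rose by 2.09 ± 0.26 from counts that were partly not whole. Of the mitotic list, Sgo2 (2.15 ± 0.43, counts not whole), Depdc1 (1.98 ± 0.28) and Cep55 (1.86 ± 0.32) rose most among genes whose groups did not overlap.

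With knockdown under PE, 18 of the 47 replication genes were lower and 6 higher, and 25 of the 57 mitotic genes were lower and none higher. The lower shares were 38.3% and 43.9%, against 28.1% of all genes. Tk1, thymidine kinase, fell by 0.87 ± 0.10, while the origin recognition genes Orc4 (1.07 ± 0.16, counts not whole) and Orc2 (0.92 ± 0.18) rose. Cdca3 fell by 1.08 ± 0.11, Espl1, which encodes separase, by 1.07 ± 0.19 from counts not whole, and Cit, citron kinase, by 1.02 ± 0.21. In unstimulated cells, 10 of the 47 were higher and 10 lower, and 9 of the 57 were lower and none higher. At 21.3%, 21.3% and 15.8% these shares were near or below those of all genes (22.8% higher and 26.4% lower). There Dtl (0.74 ± 0.23), Orc2 (0.63 ± 0.20) and Gmnn (0.56 ± 0.18) rose, and Cit (-0.90 ± 0.22), Cdca3 (-0.75 ± 0.11) and Pttg1, which encodes securin (-0.73 ± 0.14), fell.

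The G1 control, RB and E2F list was more mixed, with 15 of 33 tested genes higher and 3 lower with PE in siNeg cells, and 7 higher and 9 lower with knockdown under PE. The shares with PE were 45.5% higher and 9.09% lower, against 24.0% and 25.7% of all genes, while those with knockdown under PE (21.2% and 27.3%) were below the 29.2% and 28.1% of all genes. The atypical E2F repressors E2f8 and E2f7 rose with PE by 1.68 ± 0.19 and 1.13 ± 0.20, and Fbxo5, an inhibitor of the anaphase-promoting complex, by 1.30 ± 0.24. With knockdown under PE, E2f7 fell by 1.11 ± 0.20, E2f2 by 0.93 ± 0.16 and E2f8 by 0.76 ± 0.18. In unstimulated cells Cdkn3 fell by 0.75 ± 0.11 and Rb1, the gene of the RB protein, by 0.48 ± 0.17. Cdkn2b, which encodes the INK4 protein p15, rose with PE (1.22 ± 0.12) and with knockdown in unstimulated cells (0.80 ± 0.12). For PE in the siSlc39a2 cells, 35 of 47 replication genes, 36 of 57 mitotic genes and 16 of 33 of the G1 list were higher, and 1, 1 and 3 were lower. The higher shares were 74.5%, 63.2% and 48.5%, against 30.7% of all genes. Among the larger changes there were those of Ect2, which activates RhoA at the cleavage furrow (1.90 ± 0.32), Depdc1 (1.76 ± 0.28), Gmnn (1.37 ± 0.16), Lin54 (1.43 ± 0.16) and E2f8 (1.39 ± 0.20), and, from counts not whole, Dbf4 (2.85 ± 0.90), Cenpk (1.81 ± 0.27), Clspn (1.54 ± 0.25) and Rbl1 (1.25 ± 0.28).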

How the data were processed

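Total RNA of 12 NRVM cultures was sequenced by a commercial provider, and the study gives the 3 samples of each group as independent biological replicates. The deposited tables hold estimated counts per gene, of which 78.7% were whole numbers, and FPKM, both made by the authors. The submitters' processing notes name HISAT and Bowtie2 and the build Rnor_6.0. The counting program and annotation are not given in the sources used here. Counts were rounded, filtered with filterByExpr (13967 of 18483 genes kept), scaled by TMM and tested with edgeR 4.0.16 (R 4.3.3) in 1 model over all 4 groups (8 residual degrees of freedom). P-values were adjusted by Benjamini-Hochberg over all genes tested, and calls are at adjusted p below 0.05. The test was checked on simulated data for siNeg PE against siNeg, which held no length trend between libraries. It recovered 26 of 72 genes changed by 0.5 on the log2 scale, 50 of 61 changed by 1 and 59 of 63 changed by 2. There were 4 false calls. Changes near 0.5 can therefore fail to pass. The study's methods use limma, which was an alternative here (limma 3.58.1, quantile-normalised log2 of FPKM plus a pseudocount of 1 or 0.1), as were DESeq2 1.42.0, its size factors, no filter, the groups of a comparison alone, a replicate block and leaving out each library. A length trend per library, and leaving out 2 libraries, were added after seeing the data. Implied length is the count over total and FPKM, as the median of samples at 0.1 FPKM or more. In every comparison values are given for Mki67, Top2a, Cdk1, Mcm2, Pcna, E2f1, Ccnd1, Ccnd2 and Cdkn1a and for the 3 members of each role with the largest called change. Of the other pathway lists, the 3 largest called changes without overlap are named, and of each cell type list the 3 most abundant markers. Other genes named were chosen after their values were seen. The members, lists and tests were chosen with earlier results of these data known. No 2 samples of a group agreed within sampling noise. No sample was left out of the reported fits. Fold changes from edgeR carry the standard error implied by its F statistic.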

Additional observations from a re-analysis of the deposited data

Results flagged for a closer look

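Of the 161 tested genes of the other pathway lists, 3 had a knockdown effect that differed between cells with and without PE by the interaction test of edgeR. That is 1.86%, below the 3.61% of all genes. Of the cell type markers, Actc1 (0.57 ± 0.09), Flt1 (1.29 ± 0.21), Cnn1 (1.71 ± 0.12) and Cspg4 (0.65 ± 0.12) also passed. By list that is 1 of 12 cardiomyocyte, 1 of 9 endothelial and 2 of 10 smooth muscle markers tested. These are 8.33%, 11.1% and 20%, against the same 3.61% of all genes. None of the 12 fibroblast and 10 macrophage markers tested passed. Hjurp, which encodes the chaperone of the centromeric histone, was measured at 24.7, 31.8 and 36.4 CPM in siNeg, 24.6, 25.7 and 25.1 in siSlc39a2, 54.6, 63.6 and 61.3 in siNeg PE, and 29.2, 30 and 32.5 in siSlc39a2 PE. Knockdown lowered it by 0.30 without PE and by 0.97 with PE on the log2 scale, a difference of -0.67 ± 0.16 (adjusted p = 0.0421). Among the 12 fits that left out 1 library it passed only without siNeg replicate 1 or 3, siNeg PE replicate 1 or siSlc39a2 PE replicate 3, and adjusted p otherwise ran from 0.053 to 0.113. Myc was measured at 25.2, 24.1 and 23.6 CPM in siNeg, 25.6, 25 and 24.6 in siSlc39a2, 17.2, 18.6 and 19.9 in siNeg PE, and 29.7, 25.9 and 26.5 in siSlc39a2 PE. It had knockdown effects of 0.05 without and 0.56 with PE, a difference of 0.51 ± 0.11 (adjusted p = 0.0237), which was lost without the count filter (0.055) and in 7 of those fits, passing only without siNeg replicate 1 or 3, siNeg PE replicate 3 or siSlc39a2 PE replicate 2 or 3 (adjusted p otherwise 0.0593 to 0.07). Sesn2, a stress-responsive p53 target whose counts were partly not whole, had effects of 0.03 and -0.61, a difference of -0.64 ± 0.12 (adjusted p = 0.0124), and it passed in every fit run for it (adjusted p up to 0.046). The part of cell composition in these differences was not tested. All 3 passed with the length trend removed (adjusted p = 0.00371, 0.0235 and 0.0243).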

How the results depend on the processing

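The count of members higher with PE in siNeg cells (36) ranged from 34 to 40, that of members lower with knockdown under PE (24) from 21 to 29 and that of members higher with PE in siSlc39a2 cells (29) from 26 to 31 over all alternatives. Small counts moved. Lower with PE in siNeg cells was 1 member in the reported fit, 2 with the replicate block, 0 with both libraries out and 0 to 2 without 1 library. In unstimulated cells, 2 higher became 6 with the block (13.6% against 27.4% of all genes). That count was 1 with limma at a pseudocount of 0.1 or without a filter, and 1 to 3 without 1 library. There, 6 lower became 15 with the block (34.1% against 29.6% of all genes). That number was 23 with both libraries out and 4 to 20 without 1 library. With limma at pseudocounts of 1 and 0.1 it was 12 and 10. Those were 27.3% and 22.7% of the members, near or below the 27.5% and 27.0% of all genes lower. Under PE, 2 higher became 1 with limma in all 3 forms. For PE in siSlc39a2 cells, 2 lower became 1 with limma without a filter and 1 to 2 without 1 library, the replication median of 0.75 became 0.71 with the length trend removed, and the mitotic median of 0.73 became 0.43 with limma at a pseudocount of 1, filtered or not. For the interaction, 0 lower became 5 with DESeq2, 3 with the block (Cdc6, Pcna and Foxm1), 5, 2 and 2 with limma, 2 with the length trend removed, 1 with both libraries out and 0 to 3 without 1 library. The 3 with the block were 6.82% of the members, against 3.70% of all genes lower. Over all genes the interaction called 504, with DESeq2 806, with limma 805 and 824, with the block 1053 and without 1 library 255 to 537. Signs reversed only without 1 library, at values that did not pass. Without 1 library, Mcm2 ran from -0.15 to 0.01 and Mki67 from -0.5 to 0.13 for knockdown without PE, and for the interaction Ccnd1 from -0.07 to 0.27, Top2a from -0.45 to 0.13 (also 0.04) and Cdkn1a from -0.3 to 0.04 (also 0.03). The cause of these moves was not tested. Same-numbered samples deviated together by more than 0.1 (correlation) in 8 of 18 pairs (range -0.09 to 0.32). Differently numbered samples ran from -0.249 to 0.236. For siNeg with siNeg PE, same-numbered pairs ran higher (0.053 to 0.315) than the others (-0.249 to 0.089). These values do not settle whether the numbers pair the samples. The reported fits took no pairing, and the replicate block is given as an alternative. No sample set was crossed. All p-values rest on 3 samples a group.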

Other observations

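Genes that p53 activates, several of which restrain the cycle, were more often higher than lower after knockdown, although Cdkn1a did not pass in the reported fit. In unstimulated cells Cdkn1a passed as higher with the replicate block (0.21, adjusted p = 0.0395) and with limma on log2(FPKM + 1). It also passed without siNeg replicate 1, and with siSlc39a2 PE replicate 3 left out too. Of 24 tested genes of the p53 target list, 14 were higher and 2 lower in unstimulated cells, with a median log2 fold change of 0.30, and 13 were higher and 4 lower with PE, with a median of 0.37. Pmaip1, which encodes the cell death protein NOXA, rose by 1.26 ± 0.32 without PE and by 1.80 ± 0.30 with it. Plk2 rose by 1.21 ± 0.13 and 1.42 ± 0.13, Gadd45a by 1.02 ± 0.09 and 0.90 ± 0.08, and Zmat3 by 0.71 ± 0.08 and 0.94 ± 0.08. With PE in siNeg cells 6 of the 24 were higher and 3 lower, led by Plk2 (0.84 ± 0.13), Gadd45a (0.73 ± 0.09) and Rrm2b (0.69 ± 0.23). In siSlc39a2 cells PE raised 9 and lowered 8, among them Plk2 (1.05 ± 0.13), Rrm2b (0.86 ± 0.22) and Sesn1 (-0.88 ± 0.09). The knockdown shares were 58.3% higher and 8.33% lower without PE, against 22.8% and 26.4% of all genes, and 54.2% and 16.7% with PE, against 29.2% and 28.1%. The PE shares were near those of all genes or, for lower in siNeg cells, under them, at 25% higher and 12.5% lower in siNeg cells (24.0% and 25.7% of all genes) and 37.5% and 33.3% in siSlc39a2 cells (30.7% and 29.3%).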
